A study of Rattus norvegicus with 3 samples.

Results

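The glucocorticoid receptor and 9 of its classic partners and targets were followed after treadmill running in peripheral blood mononuclear cells, which are monocytes and lymphocytes. The members were the receptor gene Nr3c1 and Fkbp5, Tsc22d3, Zfp36, Sgk1, Klf9, Cebpd, Ddit4, Hsd11b1 and Cd163. They were found by gene symbol, which gave 15 of 31099 probe sets and 10 of 13893 genes on the Affymetrix Rat Expression Array 230 2.0, a microarray on which each probe set reports 1 stretch near the 3' end of a transcript. RNA came from male Sprague-Dawley rats, 2 months old, of a control group, of a group that ran downhill on a treadmill and of a group that ran uphill, with 1 array for each. The labels name no other treatment, and describe cells taken from 2 ml of a mixture. The sources used here do not give the number of rats behind an array, the length of the runs or the time from running to blood sampling.

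Corticosterone, the main glucocorticoid of rats, is released from the adrenal gland in stress and during exercise. It enters cells and binds the receptor, which waits in the cytosol in a complex of heat shock protein 90 and co-chaperones, and the bound receptor moves to the nucleus and regulates genes through DNA elements of its own or through other transcription factors. In blood, glucocorticoids are known for moving lymphocytes out of the circulation, for inducing anti-inflammatory genes and for restraining cytokine genes.

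Since each group had a single array, the spread between replicates is unknown, no p-value can be given, and every difference is one between arrays and not between conditions. Values are the authors' normalized intensities on a linear scale, and differences are on the log2 scale. A gene was compared where at least 1 of the 2 arrays reached a floor of 353.24, the median over genes and arrays, and was counted where it differed at least 2-fold. A gene with an array on each side of the floor entered through its higher array, which fixes its direction. The probe set with the highest mean stood for a gene, and the level of one probe set cannot be set against that of another. Of the 10 genes, 9 passed the floor and were called present on all 3 arrays, whereas Cd163 stayed below it and was called absent on each. Of the 15 probe sets, 11 were present on all arrays and 4 on none.

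The arrays had median intensities of 228.74, 219.29 and 216.51 in the order control, downhill and uphill, and between 52.4% and 54.4% of probe sets were called present. Markers of the labelled cells were detected. Of the markers on the array, 9 of 10 for T cells, 5 of 5 for B cells, 7 of 7 for natural killer cells and at least 11 of 12 for monocytes were called present on each array. The T cell marker called absent was Cd4, and the monocyte markers were Ccr2 on the control array and Cx3cr1 on the uphill array. Markers of other blood cells were present as well, with 7 of 7 for platelets, 8 or 9 of 9 for neutrophils, and 3, 4 and 9 of 10 for red cells. The summed intensity of the 12 monocyte markers was 31139 in control cells, 62959 after downhill running and 56974 after uphill running. For 9 neutrophil markers the sum was 37053, 16292 and 33955, and for 10 red cell markers it was 4375, 3304.5 and 24325. The sums for T cells (35716, 34290 and 35353) and B cells (8329, 7907 and 9435) lay closer together. Bright genes dominate such sums. In control cells Lyz2 gave 19338 of the monocyte sum, and S100a8 and S100a9 gave 11312 and 19855 of the neutrophil sum. These genes are named after their values were seen. Counted by gene, all 10 monocyte markers compared were higher on both running arrays. Of 8 neutrophil markers compared, 8 were lower for downhill and 6 for uphill. In such bulk RNA, fewer cells of a type and less RNA per cell cannot be told apart, and the part these mixtures have in the results below was not tested.

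None of the 9 members above the floor differed 2-fold on the downhill array, where 1.10% of 7264 genes did. None did so on the uphill array, where 1.37% of 7323 genes did, and none did so between the downhill and uphill arrays, where 0.892% of 7175 genes did. At the lower threshold of 1.5-fold, 1 member, Ddit4, was counted between downhill and control, beside 5.70% of genes. No member was counted at 1.5-fold between uphill and control, beside 6.46% of genes, or between downhill and uphill, beside 4.45%. The median log2 difference of the members was -0.058 for downhill and -0.040 for uphill against control, against -0.0051 and 0.028 over all genes compared. In absolute size the median difference of the members was 0.10 and 0.072, and that of all genes 0.18 and 0.18. Of the 9, 4 members were lower than control on both, 3 were higher on both and 2 had opposite signs, and both comparisons share the control array. Of all genes compared, 49.3% were higher than control for downhill and 54.5% for uphill, and the shares with each pair of signs were not counted. Among the 9, only Ddit4 and Cebpd kept their sign on both arrays under every alternative processing of the values, so these counts shift with the processing.

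**Figure D1:**
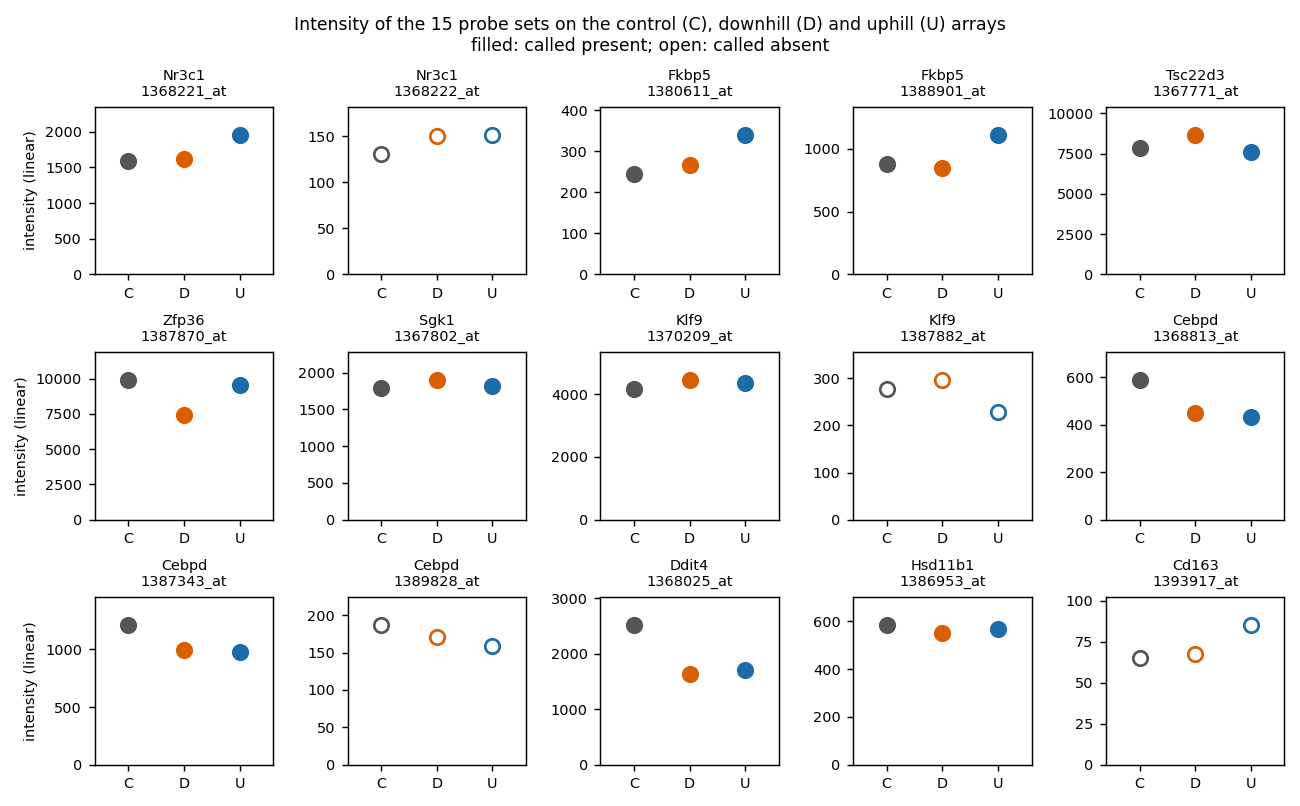
Each panel plots the linear intensity of 1 probe set on the control (C), downhill (D) and uphill (U) arrays, from 0 upward, with filled points for a present call and open points for an absent call. Ddit4 and the Cebpd probe sets sit highest on the control array, and Zfp36 sits lowest on the downhill array. The Nr3c1 probe set called present and the Fkbp5 probe sets sit highest on the uphill array.

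Ddit4, an inhibitor of the growth kinase mTOR that glucocorticoids, hypoxia and energy stress induce, had the largest difference of the members. Its intensity was 2515 in control cells, 1629 after downhill running and 1703 after uphill running. Both running arrays were below control and close to each other. The log2 difference was -0.63 (1.54-fold lower) for downhill, a size that 4.58% of genes exceeded, and -0.56 (1.48-fold lower) for uphill, which 7.16% exceeded. Between downhill and uphill it was only -0.064. The probe set aligned to chromosome 20 (27252274 to 27254371, minus strand) of the Rnor3.4 assembly. Over the differences of both running arrays from control, the genes with the pattern closest to Ddit4 among 6491 above the floor on all 3 arrays were Osbpl1a, an oxysterol-binding protein (distance 0.012), Rasgrp3, an activator of Ras proteins (distance 0.020), and Lztr1 (distance 0.028). Osbpl1a went from 3440 in control cells to 2243 after downhill and 2320 after uphill running. With 3 arrays this likeness describes a pair of differences per gene.

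The start of Ddit4 is shown because the gene led the members, and that of Fkbp5 because its protein is the receptor's own co-chaperone. Each line gives 250 bases before to 50 bases after a transcription start from RefSeq on the GRCr8 assembly, on the minus strand of chromosome 20, at chr20:28436988-28437287 for Ddit4 and chr20:6543506-6543805 for Fkbp5. Capitals mark CCAAT or its reverse complement ATTGG, the box bound by the factor NF-Y.
Ddit4: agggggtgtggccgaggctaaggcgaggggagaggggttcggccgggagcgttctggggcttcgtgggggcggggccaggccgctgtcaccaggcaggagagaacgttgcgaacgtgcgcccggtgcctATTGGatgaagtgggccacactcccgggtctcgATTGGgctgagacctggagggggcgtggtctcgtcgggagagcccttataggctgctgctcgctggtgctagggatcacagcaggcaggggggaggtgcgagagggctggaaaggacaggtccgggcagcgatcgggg
Fkbp5: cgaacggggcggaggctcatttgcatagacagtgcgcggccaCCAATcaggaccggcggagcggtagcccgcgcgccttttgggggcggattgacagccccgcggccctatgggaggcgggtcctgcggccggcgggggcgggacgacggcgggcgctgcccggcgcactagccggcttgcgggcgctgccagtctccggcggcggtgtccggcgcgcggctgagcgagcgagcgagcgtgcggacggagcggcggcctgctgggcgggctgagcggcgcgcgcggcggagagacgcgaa
Such windows were found for 8 of the 10 members, 13 windows in all, and Cebpd and Hsd11b1 had no entry. Both strands were searched for the palindromic glucocorticoid response element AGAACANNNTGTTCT, which none of the 13 windows held and which 0.0149% of 33469 windows of the same length held. Its half-site AGAACA, which overlaps it, stood in 1 of the 13 windows, that of Cd163, and in 20.7% of all windows. A CCAAT box stood in 5 of the 13 windows and in 37.5% of all, with 2 in Ddit4, starting 121 and 88 bases before the start site, and 1 in Fkbp5, starting 208 bases before it. The TATA box letters TATAAA stood in 3 of the 13 windows, 1 of Tsc22d3 and 2 of Sgk1, and in 14.2% of all. A match is a run of letters only, and an element outside these windows was not searched for.

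The receptor gene itself, Nr3c1, had an intensity of 1589 in control cells, 1613 after downhill running and 1957 after uphill running. Control and downhill were nearly equal and uphill was the highest. The log2 difference was 0.021 for downhill and 0.30 (1.23-fold higher) for uphill, and 28.3% of genes differed by more than the latter. The other Nr3c1 probe set was called absent on all arrays (130.28, 150.85 and 151.76), so it gives no second reading. Both aligned to chromosome 18 of Rnor3.4 (32371495 to 32458849, minus strand).

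Fkbp5, an immunophilin of the receptor complex that lowers hormone binding and is itself induced by the receptor, forms a short feedback loop. The brighter Fkbp5 probe set had 878.44 in control cells, 843.71 after downhill running and 1111 after uphill running. Uphill stood above the other arrays, with a log2 difference of 0.34 (1.26-fold higher) from control, while downhill differed from control by -0.058. The other Fkbp5 probe set, present on all arrays but below the floor, gave 244.91, 267.32 and 340.41, and was also highest on the uphill array (log2 difference 0.47). Between downhill and uphill the differences of these probe sets were -0.40 and -0.35. They aligned next to each other on chromosome 20 of Rnor3.4 (6637479 to 6637902 and 6639094 to 6640863, minus strand). The difference between downhill and uphill of the brighter probe set was exceeded by 13.3% of genes.

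Tsc22d3 encodes GILZ, a leucine zipper protein that binds NF-kB and AP-1 and carries part of the anti-inflammatory action of glucocorticoids. Its intensity was 7824 in control cells, 8674 after downhill running and 7608 after uphill running. The log2 difference was 0.15 for downhill and -0.040 for uphill, and 56.7% and 87.3% of genes differed by more. The probe set aligned to chromosome X (128336409 to 128340027, minus strand) of Rnor3.4.

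Zfp36 encodes tristetraprolin, which binds AU-rich elements and hastens the decay of cytokine mRNAs such as that of Tnf. Its intensity was 9914 in control cells, 7401 after downhill running and 9570 after uphill running, so the downhill array was the low one. The log2 difference was -0.42 (1.34-fold lower) for downhill, exceeded by 13.7% of genes, -0.051 for uphill, and -0.37 between downhill and uphill. Tnf was 1044 in control cells, 387.47 after downhill running and 342.25 after uphill running, lower on both, and its other probe set was called absent on all arrays. The Zfp36 probe set aligned to chromosome 1 (83486646 to 83489124, minus strand) of Rnor3.4.

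Sgk1, a kinase that regulates ion transport and is induced within a short time of hormone binding, hardly differed between arrays. It had 1790 in control cells, 1903 after downhill running and 1813 after uphill running, with log2 differences of 0.088 and 0.018. Its probe set aligned to chromosome 1 (23501261 to 23506702, minus strand) of Rnor3.4.

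Klf9 and Cebpd are transcription factors that the receptor induces. Klf9, a zinc finger factor that represses other hormone targets, had 4150 in control cells, 4452 after downhill running and 4363 after uphill running. The 3 values lay close together, with log2 differences of 0.10 for downhill and 0.072 for uphill. The other Klf9 probe set was absent on all arrays (277.36, 296.77 and 229.5). Both aligned to chromosome 1 of Rnor3.4 (226420948 to 226446456, plus strand).

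Cebpd, a CCAAT/enhancer-binding factor of myeloid cells and of the acute phase response, was lower on both running arrays by all 3 of its probe sets. The brightest had 1210 in control cells, 996.68 after downhill running and 978.24 after uphill running. The log2 difference was -0.28 for downhill and -0.31 (1.24-fold lower) for uphill, and 29.6% and 27.5% of genes differed by more. The second Cebpd probe set, with 589.02, 448.07 and 433.2, differed by -0.39 and -0.44. The third was absent on all arrays and lower on both as well (186.84, 170.94 and 158.72). Downhill and uphill were nearly equal in the first 2, with differences of 0.027 and 0.049. The file gives no alignment for these probe sets. The summed monocyte markers, another set of myeloid genes, went the other way on the same arrays, at 2.02 times control for downhill and 1.83 times for uphill, and the neutrophil markers were at 0.44 and 0.916 times control.

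Hsd11b1, the enzyme that regenerates active glucocorticoid from its inert 11-keto form inside cells, had 584.28 in control cells, 552.66 after downhill running and 567.55 after uphill running. These values spanned 1.06-fold, the narrowest range of the 9 members above the floor (Sgk1 spanned 1.06-fold and Klf9 1.07-fold), with log2 differences of -0.080 and -0.042. Its probe set aligned to chromosome 13 (109063494 to 109089216, minus strand) of Rnor3.4.

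Cd163, the haemoglobin scavenger receptor of macrophages and a glucocorticoid-induced gene of monocytes, was not detected. It had 64.92 in control cells, 67.76 after downhill running and 85.27 after uphill running, all called absent, so no fold is given. On the same arrays 11 or 12 of the 12 monocyte markers were called present. Its probe set aligned to chromosome 4 (160423691 to 160427610, plus strand) of Rnor3.4.

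**Figure D2:**
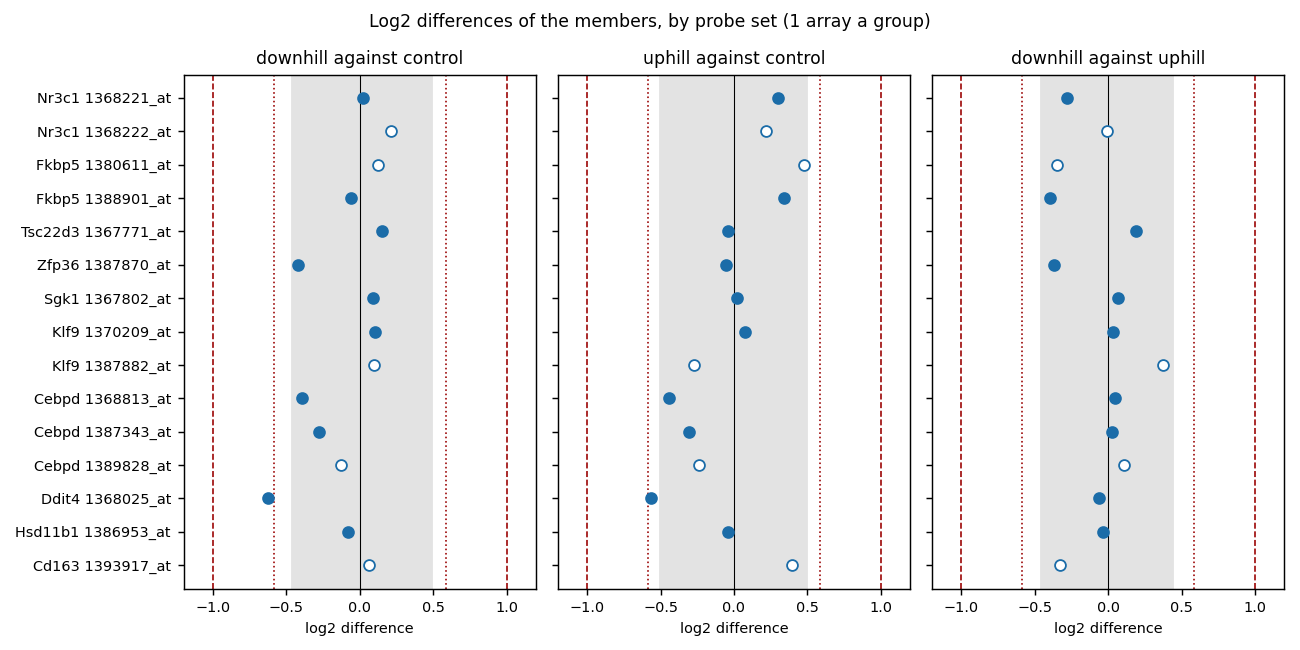
Points give the log2 difference of each probe set in the 3 comparisons (horizontal axis), filled where the brighter array reached the floor. The grey band holds the 5th to 95th percentile of all genes compared, dotted lines mark 1.5-fold and dashed lines 2-fold. Ddit4 alone lies outside the band, in both comparisons with control.

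The rest of the receptor pathway was read from lists written with earlier results of these data known. Of 11 chaperones of the receptor compared on the downhill array, 8 were higher and 3 lower than control (median log2 difference 0.11, range -0.35 to 0.37), and of 12 on the uphill array, 9 were higher (median 0.14, range -0.081 to 0.45). None reached 1.5-fold. Over all genes compared, 49.3% were higher than control for downhill and 54.5% for uphill. Hsp90ab1, the constitutive heat shock protein 90, had 5453 in control cells, 5961 after downhill running and 6183 after uphill running. Fkbp4, the co-chaperone that opposes Fkbp5, had 354.39, 392.44 and 450.15, and these genes are named after their values were seen.

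Coregulators, the proteins that link the receptor to chromatin and to the transcription machinery, differed by small amounts, and their probe sets disagreed in direction. By the brightest probe set of each gene, 11 of 12 compared were lower than control on the downhill array (median -0.13, range -0.29 to 0.038). On the uphill array 7 of 12 were lower (median -0.058, range -0.21 to 0.29). Beside them, 50.7% of all genes compared were lower for downhill and 45.5% for uphill. None of the 12 coregulators reached 1.5-fold on either array by its brightest probe set. Of 13 other probe sets of these genes that were present on all arrays, 7 were lower and 6 higher on the downhill array (-0.36 to 0.46), and 4 were lower and 9 higher on the uphill array (-0.41 to 0.595, the highest of them Med1 and past 1.5-fold). Those of Ncoa3, Crebbp, Med1 and Smarca4, named after their values were seen, included ones higher on the downhill array, with log2 differences of 0.46, 0.41, 0.335 and 0.18. The corepressor Ncor1, named after its values were seen, had 2524 in control cells, 2065 after downhill running and 2393 after uphill running.

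Of 6 further genes on the array for access, metabolism or binding of the hormone, beside Hsd11b1, none reached the floor. The mineralocorticoid receptor gene Nr3c2, which binds the same hormone with higher affinity, was called absent on every array (107.6, 116.14 and 96.29), as was Hsd11b2, the enzyme that inactivates corticosterone (169.11, 194.17 and 142.62).

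Of 23 other genes known to be induced by glucocorticoids that could be compared, 15 were higher and 8 lower on each running array. Their medians were 0.085 for downhill and 0.12 for uphill. Of all genes compared, 49.3% were higher for downhill and 54.5% for uphill. Between downhill and control, 4 were at least 1.5-fold higher and 1 lower, and between uphill and control 3 were higher and 1 lower. Over all genes, 3.33% were at least 1.5-fold higher and 2.37% lower for downhill, and 3.35% and 3.11% for uphill. Cdkn1a, a cell cycle inhibitor named after its values were seen, is among the 15 higher genes by its brightest probe set (0.085 and 0.041), while its other probe set, present on all arrays, differed by -1.03 and -0.95. Anxa1 and Klf13 for uphill and Glul for downhill, named likewise, were also higher only by the brightest probe set. Their other probe sets, all called present, gave -0.23, -0.22, and -0.28 and -0.10. For uphill Glul was lower by the brightest (-0.0062), with 0.065 and -0.37 for the others. The thrombin cofactor Thbd had 384.86 in control cells, 1584 after downhill running and 1154 after uphill running, 4.12-fold and 3.0-fold higher. Its other probe sets disagreed in size. One of them, not called present on the control array, gave log2 differences of 1.87 for downhill and 0.64 for uphill, against 2.04 and 1.58 for the brightest, and the other was called absent on all arrays. The metallothioneins, which bind zinc and copper, were higher too. Mt2A had 577.38, 1889 and 1421 in the same order, and Mt1 had 284.17, 667.34 and 405.8. The control value of Mt1 lay below the floor, so Mt1 could be counted only as higher. Conversely Bcl2l11, called absent on all arrays and below the floor for downhill (402.09 in control cells, 328.92), could there be counted only as lower. The decoy interleukin-1 receptor Il1r2, which is also a neutrophil marker in the lists, had 1490, 362.82 and 1095 and was 4.11-fold lower on the downhill array. Other targets that respond within a short time of hormone binding differed less. The clock gene Per1 had 4300, 3967 and 4666, and the MAP kinase phosphatase Dusp1 had 9278, 7545 and 9339, lowest on the downhill array as Zfp36 was, although the other Dusp1 probe set differed by 0.017 for downhill and -0.55 for uphill. The NF-kB inhibitor Nfkbia had 10780, 10783 and 11315, and these 3 are named after their values were seen.

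Of the cytokine and inflammatory genes that glucocorticoids repress, 6 of 10 were lower on the downhill array (median -0.23) and 8 of 9 on the uphill array (median -0.61), while 50.7% and 45.5% of all genes were lower. Mmp9, one of the lower genes, is also a neutrophil marker in the lists. Ptgs2, the inducible prostaglandin synthase, had 357.09 in control cells, 69.66 after downhill running and 59.41 after uphill running, all called present. Ptgs2 and Mmp9 (370.38, 133.01 and 242.55) reached the floor only on the control array. They could thus be counted only as lower, as could Tnf on the uphill array (342.25). The chemokine Cxcl2 had 1878, 564.64 and 906.5 and was lower on both running arrays. Ccl2, a chemokine for monocytes, went the other way, with 183.57, 764.68 and 296.3. Its control and uphill values lay below the floor. It could thus be counted only as higher on the downhill array, and is not among the 9 compared on the uphill array. There the 1 higher gene was Ccl5 (log2 difference 0.41), named after its values were seen. Of the immediate early genes, among which Dusp1 is counted again, 10 of 14 were lower on the downhill array (median -0.093). On the uphill array 13 of 14 were lower (median -0.41). In that list Fosb had 1661, 1677 and 284.06, Atf3 had 578.03, 677.93 and 227.41, Jun had 4677, 3047 and 1884, and Nr4a1 had 3462, 3023 and 1675. All 4 were lowest on the uphill array, where Zfp36 was within 1.04-fold of control. Fosb and Atf3 were below the floor on that array, so against control they could be counted only as lower there.

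**Figure D3:**
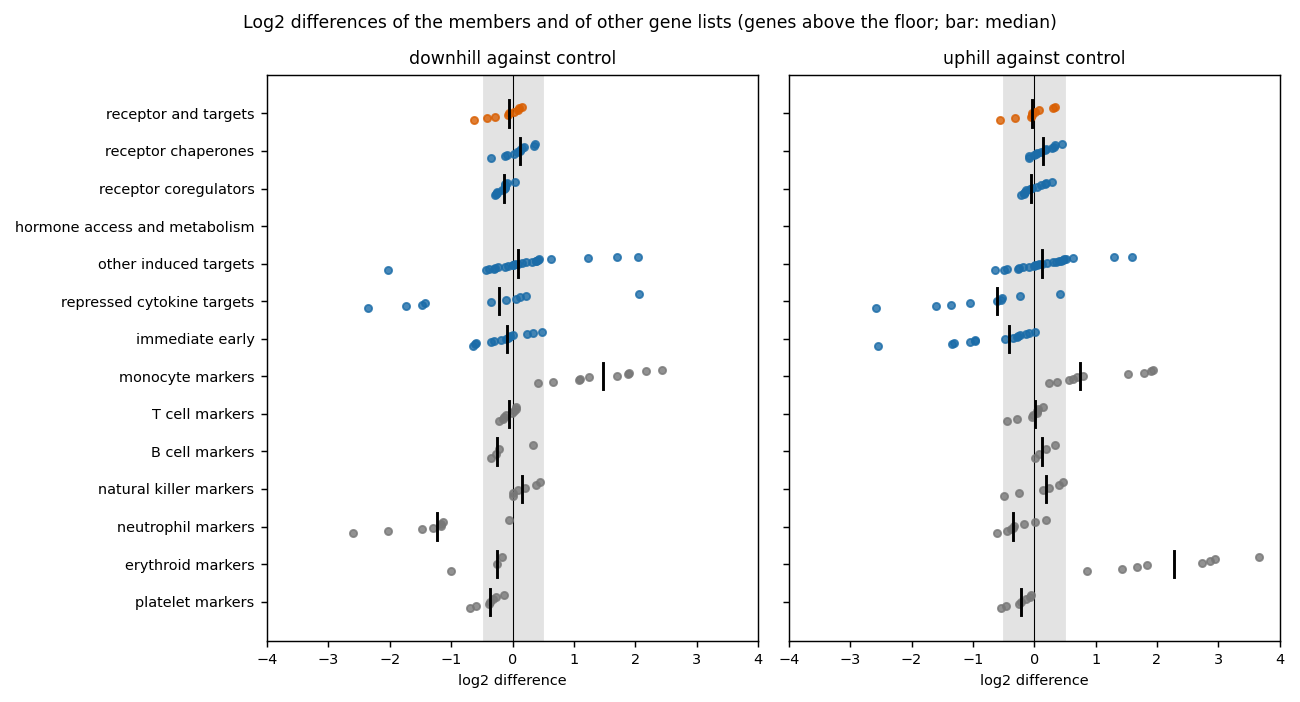
Each point is the log2 difference of 1 gene above the floor in the receptor and target list (orange), the other pathway lists (blue) and the cell type marker lists (grey), for downhill (left) and uphill (right) against control. Black bars are medians and the grey band holds the 5th to 95th percentile of all genes. The receptor and its targets span -0.63 to 0.15 for downhill and -0.56 to 0.34 for uphill, while the monocyte markers have medians of 1.48 and 0.74.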

How the data were processed

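RNA of 3 groups was measured on 1 array each. The deposited intensity values were normalized by the authors with RMA, per the submitters' processing notes, a method that corrects background, equalizes distributions and summarises probe sets. They are on a linear scale from 1 to 34067, and the sources used here do not give the software or any rescaling. The medians of the deposited values still differed between arrays (228.74 for control, 219.29 for downhill and 216.51 for uphill). The deposited present, marginal or absent calls (unit other) come from an algorithm that is not stated. The second deposited table repeated these intensities, with 93297 of 93297 cells equal within 1e-06. Alignments are to Rnor3.4, per the file headers.

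Intensities were converted to log2 without an offset (Python 3.11.15, pandas 2.3.3). Of 31099 probe sets, 19628 carried 1 symbol, 800 several and 10671 none, and 19192 matched the current rat gene table by Entrez number. The brightest probe set stood for a gene. With 1 array a group no test was possible, and the number of arrays limits the precision. The counting was tested on simulated data. The members, lists and rules were chosen with earlier results of these data known. The text names all members and, per pathway list, up to 4 genes that differed at least 1.5-fold from control, and says where others were named after their values were seen. Alternatives were a threshold of 1.5-fold, leaving out the floor or raising it to the 75th percentile (963.84), quantile normalization and cyclic loess (limma 3.58.1, R 4.3.3, span 0.7, 3 iterations), median centring, averaging the probe sets of a gene, and an offset of 32.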

Additional observations from a re-analysis of the deposited data

Results flagged for a closer look

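Fkbp5 and Tsc22d3 lay on opposite sides of the control array in the runs. Fkbp5 had a log2 difference of -0.058 for downhill and 0.34 for uphill, and Tsc22d3 had 0.15 for downhill and -0.040 for uphill. These differences between the runs were not tested, since each group had 1 array. The smaller value of each pair changed sign with the processing: Fkbp5 for downhill was 0.0027 with median centring and 0.034 with the mean of its probe sets, and Tsc22d3 for uphill was 0.039 with median centring.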

How the results depend on the processing

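No paired analysis was possible because each group had 1 array. No member reached 2-fold in any of the 3 comparisons under the 7 alternatives that kept this threshold, and the 1.5-fold threshold counted 1 member (Ddit4) between downhill and control. Of 30 member values, 7 changed sign under at least 1 of 5 alternatives that alter values, and the largest of these was 0.072 in absolute size. The 7 were Nr3c1 and Fkbp5 for downhill, and Tsc22d3, Zfp36, Sgk1, Klf9 and Hsd11b1 for uphill. All other member values kept their sign. Ddit4 ranged from -0.66 to -0.57 for downhill and from -0.60 to -0.48 for uphill. The median of the members changed sign for downhill against control, with 0.021 at the higher floor, 0.0027 with median centring and 0.034 with the mean of probe sets, and for uphill it was 0.039 with median centring. Over all genes, 80 were counted for downhill and 100 for uphill against control, and 64 between the runs. In the same order the counts became 414, 473 and 319 at 1.5-fold, 51, 57 and 38 at the higher floor, and 103 between the runs without a floor. Absent calls limit Cd163, the second probe sets of Nr3c1 and Klf9, and the third probe set of Cebpd.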

Other observations

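Several induced targets outside the members differed between the runs, and all are named after their values were seen. Irs2, an adaptor of the insulin receptor, had an intensity of 1200 in control cells, 1849 after downhill running and 849.99 after uphill running, so it was high on one run and low on the other. Txnip, which restrains glucose uptake, had 9231, 7857 and 12927 in the same order. Il7r, the interleukin-7 receptor of resting T cells, had 1583, 1621 and 2191, and Sesn1, a stress-induced inhibitor of mTOR, had 1600, 1523 and 2162. Between the runs Il7r and Sesn1 differed 1.35-fold and 1.42-fold, short of 1.5-fold. Txnip, Il7r and Sesn1 were highest on the uphill array, as Fkbp5 and Nr3c1 were, although another Sesn1 probe set was called absent on all arrays. Other induced targets were lowest there, among them Rgs2 (7918, 9225 and 6639) and Cxcr4 (13510, 14974 and 12743), as the member Tsc22d3 was. Of the 23 induced targets compared between the runs, 12 were higher for downhill and 11 for uphill, while 46.1% of all genes were higher for downhill.

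Bcl6, a transcriptional repressor of lymphocytes, had 2297, 1755 and 1479 and was lower on both running arrays, as Ddit4 was. Errfi1, a feedback inhibitor of the epidermal growth factor receptor, had 772.4, 1005 and 1201 and was higher on both.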
